A study of Ixodes ricinus with 9 samples.

Results

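ATP-binding cassette (ABC) transporters were described in the midgut of female Ixodes ricinus, the castor bean tick, as every annotated gene whose predicted protein carries the Pfam domain PF00005, the ATP-binding domain that defines the superfamily. The rule gave 107 of the 28510 genes in the count table. By best Swiss-Prot match, 60 of them fell into subfamily C, 20 into A, 13 into G, 6 into B, 4 into F, 3 into D and 1 into E. Ticks from a laboratory colony had been injected with double-stranded RNA against antigen p23, against metalloprotease (MET) or against green fluorescent protein (GFP), which ticks do not have and which served as the control. All were fed bovine blood through an artificial membrane, and midguts were taken on feeding day 7. Pools of 3 ticks gave 1 library each, with 3 libraries in a group. The study describes the metalloprotease transcript as only partly reduced in the midgut, which limits that group as a knockdown. The count table does not pair either target with a gene, so target levels are not analysed here.

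ABC proteins use ATP to move substrates across membranes, and most combine a pair of ATP-binding domains with a pair of membrane domains, either in 1 chain or by pairing of shorter chains. In animals, subfamilies A and G mostly move lipids and sterols, B and C hold the multidrug exporters together with mitochondrial and conjugate exporters, and D members sit in peroxisomes and lysosomes. ABCE and ABCF proteins have no membrane part and act on ribosomes. The tick midgut takes up and stores the blood meal, so its cells handle heme, iron, host lipids and ingested compounds. The roles named below are those of the matched proteins, mostly from mammals, and were not tested in ticks.

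Library totals ran from 3303358 to 9430607 counts, with metalloprotease replicate 3 the deepest, and the ABC genes took 0.329% to 0.440% of them. Antigen p23 replicates 1 and 2 stood apart, with 7291 and 6294 genes detected against 9136 to 10988 in the other 7 libraries. ABC genes followed, with 34 and 25 of the 107 detected in those libraries and 42 to 64 in the others. Markers of midgut digestive cells (cathepsins, legumain and dipeptidyl peptidase) were present in all libraries, at a summed 1820 to 4802 CPM (counts per 1000000 of the library). Muscle markers summed to 953 to 2915 CPM, neural markers to 484 to 825 CPM and vitellogenins, made by fat body, midgut and ovary, to 16574 to 63024 CPM. The tick lipocalins, used here as salivary markers, were at 0 in 7 libraries and at 1.495 and 1.285 CPM in GFP control replicate 2 and metalloprotease replicate 1. Only 1 of the 6 lipocalin genes had any count, and such genes are also expressed in other tick tissues. In bulk midgut, fewer cells of a type and less RNA per cell cannot be told apart.

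Most of the superfamily was not or barely detected in the midgut. No read was counted in any of the 9 libraries for 34 of the 107 genes, 22 had 1 to 9 counts in total, 20 had 10 to 99, and 31 had 100 or more. Only 23 were counted in every library. The share at 0 in all 9 libraries was 31.8% for ABC genes and 54.6% for all genes of the table, and the share with 100 or more counts was 29.0% and 23.9%. A count of 0 in 1 library allows up to 3 counts there, and 0 in all 9 allows up to 3 over their summed depth. Such values limit detection at this depth rather than showing absence.

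The genes without counts were mostly ABCC matches. Of the 60 ABCC genes, 26 were at 0 and 15 had fewer than 10 counts, and the other 8 genes at 0 were 4 ABCA and 4 ABCG matches. Every B, D, E and F member had counts. Coding length went along with detection, since the median was 1431 bases for the 34 genes at 0 and 2259 bases for the 31 with 100 or more counts. In the annotation 63 of the 107 genes were shorter than 2000 bases, and 23 carried no Pfam domain other than PF00005. The ABC membrane domain PF00664 accompanied PF00005 in 53 genes, PF12698 in 18, PF01061 in 6 and PF06472, the domain of subfamily D, in 3.

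The genes lay on 72 scaffolds of the Ixodes persulcatus assembly to which reads had been mapped, and 20 scaffolds held several, with 55 genes among them. The longest run was 9 ABCC genes on scaffold JABSTQ010011125.1 between bases 49714 and 970981. These 9 genes had 61 counts in all 9 libraries together, of which HPB47_007856, an ABCC3 match, had 30, and 3 had none. A run of 6 ABCC genes on scaffold JABSTQ010009336.1, between bases 474752 and 719930, was of the opposite kind in part. There HPB47_022808 and HPB47_022813, both matches of ABCC1 (the multidrug resistance-associated protein, which exports glutathione conjugates), had 7853 and 8403 counts, while HPB47_022809 had 23 and HPB47_022810, HPB47_022811 and HPB47_022814 had none. Between them lies HPB47_022812 (bases 645270 to 647592, plus strand), an ABCC3 match with a membrane domain but no PF00005, with 8703 counts. HPB47_022813 follows it directly on the same strand (bases 648561 to 649619), is 1059 bases long and carries PF00005 without a membrane domain. Whether this pair are parts of the same gene was not tested. On scaffold JABSTQ010009160.1, 4 matches of ABCG1, a sterol exporter in mammals, had 12 counts together, and on JABSTQ010011283.1 all 3 ABCC genes were at 0.

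**Figure D1:**
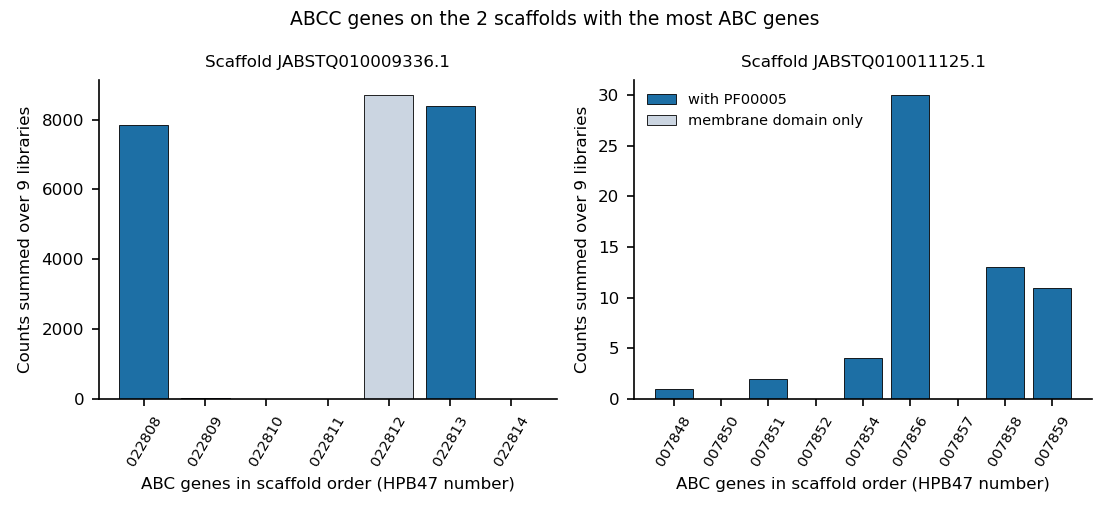
Counts summed over the 9 libraries (linear axes from 0, different in each panel) for the ABC genes on the 2 scaffolds with the most ABC genes, in scaffold order. Dark bars carry PF00005 and the pale bar is HPB47_022812, which has a membrane domain only; on the left scaffold 3 genes hold nearly all counts, and on the right no gene exceeds 30.

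Levels of different genes are compared as CPM per kilobase of coding length, called level here, with CPM set on the effective library size. On this scale a few genes made up most of the superfamily's transcripts. The highest member had 41.2% of the summed level averaged over libraries, the highest 5 had 74.4% and the highest 10 had 89.4%. The summed level was 2093 ± 355 in the GFP control group, 2343 ± 87.3 in the antigen p23 group and 1852 ± 364 in the metalloprotease group (SD, n = 3 each), with overlap between each knockdown and the control. The antigen p23 libraries (2245 to 2411) were above the metalloprotease libraries (1432 to 2070). This order depended on the factors that turn library totals into effective sizes, from 0.794 in antigen p23 replicate 1 to 1.26 in GFP control replicate 2. On plain library totals, without these factors, the 2 knockdown groups overlapped, and the antigen p23 mean was below the control mean.

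Subfamily D held the largest share of the summed level in every library, 38.1% to 51.6%, although it has 3 genes. Subfamily F, with 4 genes, held 17.8% to 32.1%, and subfamily C, with 60 genes, held 13.8% to 29.4%. Subfamily B had 5.70% to 8.08%, E had 0.885% to 1.85%, G had 0.227% to 3.54% and A had 0.177% to 1.68%. The share of subfamily C was 25.9% ± 3.02 in the GFP control group, 17.3% ± 1.99 in the antigen p23 group and 19.2% ± 5.21 in the metalloprotease group (SD, n = 3). It lay between 24.1% and 29.4% in the control libraries and between 15.2% and 19.1% in the antigen p23 libraries, so these groups did not overlap, while the metalloprotease libraries (13.8% to 24.1%) reached the lowest control library. The summed level of subfamily C was 546 ± 139, 406 ± 60.9 and 366 ± 155 in the same order, of which HPB47_022813 alone gave 288 ± 75.7, 184 ± 41.7 and 138 ± 80.3 (SD, n = 3). No test was run on the shares.

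**Figure D2:**
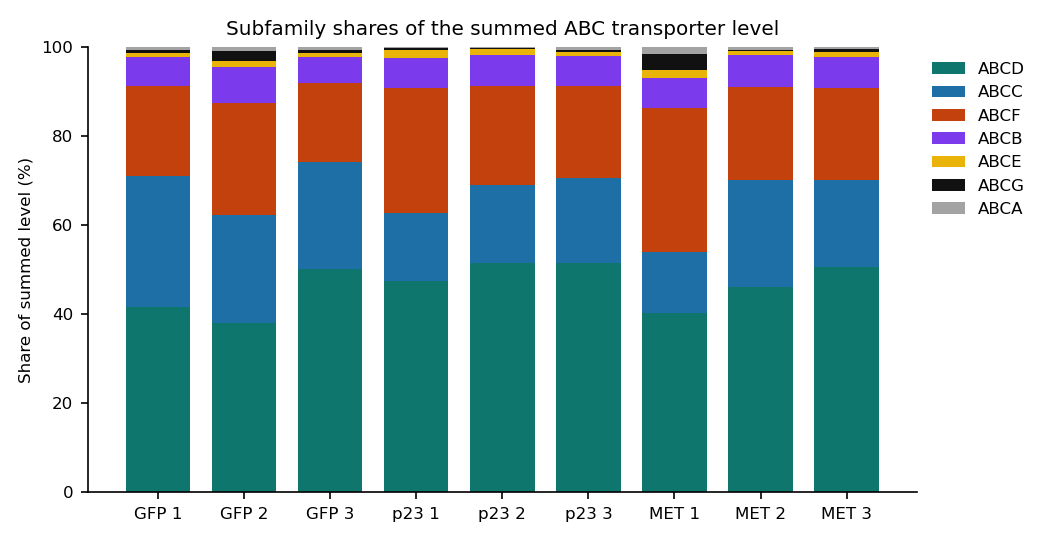
Share of the summed ABC level (%) by subfamily in each library, stacked from 0 to 100, with replicates 1 to 3 of the GFP control, antigen p23 (p23) and metalloprotease (MET) groups. ABCD is the largest block in all 9 libraries (38.1% to 51.6%), and ABCG exceeds 2% only in GFP control replicate 2 and metalloprotease replicate 1.

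Among the subfamily D genes, HPB47_012449 (scaffold JABSTQ010011521.1, bases 290641 to 292500, minus strand) was the most abundant ABC transcript in every library. It matches human ABCD4, which exports cobalamin (vitamin B12) from lysosomes. Its level was 837, 573 and 977 in the GFP control libraries, 983, 1092 and 1081 in the antigen p23 libraries and 497, 784 and 943 in the metalloprotease libraries. All antigen p23 libraries were above all others, by a narrow margin at 983 against 977. On plain library totals they overlapped with both other groups. With a mean level of 863 it ranked 181 among all genes of the table, and its lowest library was above the highest of the next ABC gene. A further ABCD4 match, HPB47_021979, had a mean level of 88.6, and the ratio of the first to the second ranged from 5.97 to 24.1 over libraries. HPB47_010299 matches ABCD3, a peroxisomal importer of fatty acyl-CoA, and had levels of 27.8 ± 7.10, 38.8 ± 6.30 and 28.4 ± 8.99 in the GFP control, antigen p23 and metalloprotease groups (SD, n = 3).

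The ABCF and ABCE matches, whose relatives act in translation, were counted in every library. HPB47_027106 (scaffold JABSTQ010009806.1, bases 195346 to 202577, plus strand), an ABCF2 match, was second in level with 286, 241 and 207 in the control libraries, 318, 295 and 293 in the antigen p23 libraries and 231.04, 250.5 and 238.6 in the metalloprotease libraries. The antigen p23 libraries were again the highest, and the control and metalloprotease libraries intermixed. HPB47_027107, also an ABCF2 match, lies on the same strand (bases 205313 to 213698), 2735 bases beyond its end. Its levels were 108, 94.7 and 107 in the control libraries, 191, 119 and 123 in the antigen p23 libraries and 107, 80.1 and 94.6 in the metalloprotease libraries, so it showed the same order of groups. For both genes the antigen p23 libraries overlapped with the other groups on plain library totals. The level of HPB47_027106 was 1.67 to 3.13 times that of its neighbour over the 9 libraries. The annotation gives the pair as separate genes of 1404 and 1227 coding bases, and whether they are parts of 1 gene was not tested.

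HPB47_009048, an ABCF3 match, had levels of 43.7 ± 3.24, 59.8 ± 34.0 and 43.7 ± 8.54 in the GFP control, antigen p23 and metalloprotease groups (SD, n = 3), and the antigen p23 value spread from 24.7 to 92.5. HPB47_003223 matches ABCF1, which binds the initiation factor eIF2 in mammals, and its levels in the same order were 41.0 ± 4.73, 44.1 ± 15.1 and 59.6 ± 16.2. HPB47_004275 matches ABCE1, the iron-sulfur protein that splits ribosomes after termination, and its levels were 22.0 ± 1.29, 30.7 ± 9.93 and 23.7 ± 4.43. For all 3 genes the groups overlapped.

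Subfamily B was led by the mitochondrial types. HPB47_000007 (scaffold JABSTQ010010001.1, bases 69106 to 71055, plus strand) matches ABCB10, a mitochondrial inner membrane protein needed for heme synthesis in mammals. Its levels were 126, 118 and 93.8 in the control libraries, 132, 129 and 138 in the antigen p23 libraries and 78.2, 123 and 117 in the metalloprotease libraries. The antigen p23 libraries were above the rest, the nearest values being 129 and 126, but on plain library totals they overlapped with both other groups. HPB47_007111, a match of ABCB6 (linked to porphyrin transport), had a mean level of 13.3, with 30.7 in antigen p23 replicate 2 and 7.51 to 14.4 in the other 8 libraries. HPB47_001932, a match of ABCB8 (the ATP-binding subunit of a mitochondrial potassium channel), had levels of 5.26, 5.26 and 8.76 in the control libraries, 3.42, 1.40 and 3.94 in the antigen p23 libraries and 3.12, 6.68 and 7.59 in the metalloprotease libraries. HPB47_025654 matches ABCB1, the drug exporter P-glycoprotein. It had only 168 counts, and none in antigen p23 replicates 1 and 2.

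In subfamily C, 6 ABCC1 matches gave most of the level. HPB47_022813 had 371, 223 and 269 in the control libraries, 137, 199 and 217 in the antigen p23 libraries and 47.3, 201 and 165 in the metalloprotease libraries. All 6 knockdown libraries lay below all 3 controls, the nearest values being 217 and 223. The membrane-domain gene before it, HPB47_022812, had levels of 343, 161 and 221 in the control libraries, 13.2, 131 and 162 in the antigen p23 libraries and 39.7, 189 and 129 in the metalloprotease libraries. Its groups overlapped, and both genes were lowest in antigen p23 replicate 1 and metalloprotease replicate 1. HPB47_022808, the full-length gene on the other strand of the same scaffold, had 52.7 ± 20.2, 36.2 ± 19.0 and 51.6 ± 32.8 in the control, antigen p23 and metalloprotease groups (SD, n = 3).

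HPB47_005177 had the largest count of subfamily C, 14137 reads over 4683 coding bases, and levels of 79.2 ± 22.8, 80.3 ± 15.1 and 71.0 ± 27.4 in the GFP control, antigen p23 and metalloprotease groups (SD, n = 3). HPB47_014377 followed with a mean level of 50.5, and HPB47_003320 and HPB47_016252 with 18.7 and 18.3. HPB47_016252 was at 39.2 in control replicate 1 and 5.27 in antigen p23 replicate 1, with the other libraries between 11.3 and 23.9. HPB47_003320 was even, at 14.1 to 21.7 in the 9 libraries. HPB47_007564 matches ABCC4, an exporter of cyclic nucleotides and prostanoids, and had 5.49, 7.38 and 7.77 in the control libraries, 4.42, 6.03 and 4.03 in the antigen p23 libraries and 6.57, 11.7 and 11.9 in the metalloprotease libraries. Every metalloprotease library was above every antigen p23 library. HPB47_011071, an ABCC5 match, had 100 counts in total and levels of 1.94 or less.

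Subfamilies A and G were low in most libraries. The summed level of G reached 36.7 in control replicate 2 and 50.6 in metalloprotease replicate 1. There HPB47_018040, the highest G gene by mean level (7.32), was at 23.2 and 38.7, and it is described below with the ABCA3 match HPB47_016039. HPB47_012908, a match of ABCA3, the phospholipid transporter of lung surfactant, was the highest A gene at 5.28 ± 1.59, 6.27 ± 3.99 and 5.46 ± 3.37 in the GFP control, antigen p23 and metalloprotease groups (SD, n = 3). HPB47_011089 and HPB47_011090, neighbours on scaffold JABSTQ010011404.1 that both match the lipid transporter ABCA2, had 225 and 236 counts. HPB47_011089 had levels of 1.87, 1.49 and 3.52 in the control libraries, 0.09, 0 and 1.38 in the antigen p23 libraries and 1.68 in each metalloprotease library, so the antigen p23 libraries were the lowest. HPB47_027988 and HPB47_000193, matches of ABCG1, had mean levels of 5.03 and 2.94. A G gene with 41 counts, HPB47_026182, was at 0 in all 3 antigen p23 libraries against 6, 15 and 1 counts in the control libraries, at least 6.25-fold lower when the group is set at 3 counts. Control replicate 2 gave most of these counts, and without it the bound was 3.22-fold.

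**Figure D3:**
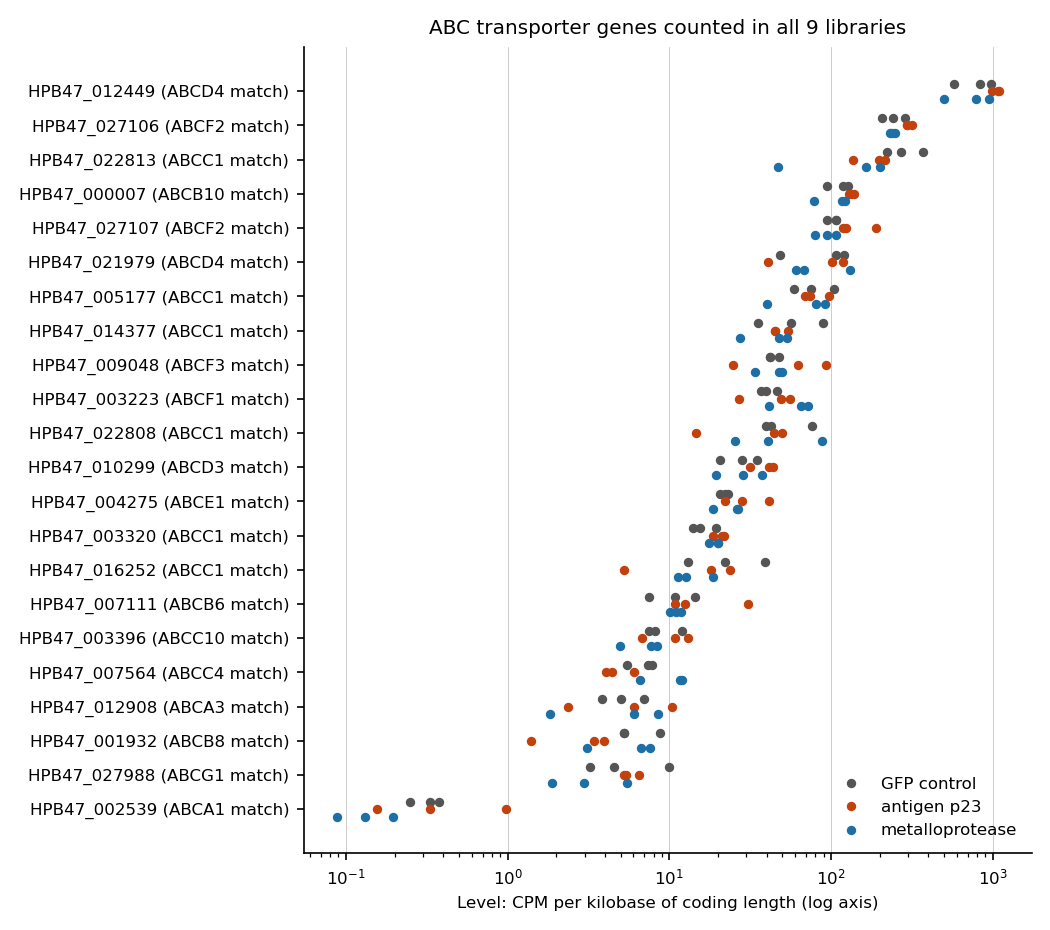
Level (CPM per kilobase of coding length, log axis) of 22 of the 23 ABC genes counted in all 9 libraries, 1 point per library and colour per group. HPB47_012449 stands apart on the right, and for most other genes the points of the 3 groups intermix.

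In order of mean level, HPB47_012449 was the only gene of the upper 19 whose range over the 9 libraries did not touch that of the next. Below it, the ranges of neighbours in the order overlapped. The higher gene of a pair was nevertheless above the next in every library for HPB47_005177 against HPB47_014377, and in 8 of 9 for HPB47_022813 against HPB47_000007, HPB47_022808 against HPB47_010299, HPB47_004275 against HPB47_003320 and HPB47_007111 against HPB47_003396. At the other end, HPB47_018040 exceeded HPB47_007564 in 2 libraries. HPB47_027106 was above HPB47_022813 in 7 of 9 libraries, and HPB47_000007 above HPB47_027107 in 6.

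A few ABC genes had nearly all of their counts in 1 to 3 libraries. HPB47_018040 matches the G family member 20 of Dictyostelium discoideum but carries PF12698, a membrane domain that 16 A matches and 1 other G match, HPB47_020172, also carry. Its counts were 14, 360 and 1 in the control libraries, 6, 0 and 6 in the antigen p23 libraries and 466, 6 and 11 in the metalloprotease libraries. Control replicate 2 and metalloprotease replicate 1 thus held 41.4% and 53.6% of its reads. HPB47_016039, an ABCA3 match, had 3, 92 and 56 counts in the control libraries, 4, 0 and 2 in the antigen p23 libraries and 230, 5 and 6 in the metalloprotease libraries.

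Summed over groups, HPB47_018040 was 26.6-fold lower in antigen p23 than in control libraries (95% counting interval 15.1 to 52.0). Without control replicate 2 the ratio was 1.72 (0.753 to 4.03), so that the difference rested on this library. HPB47_016039 was 21.4-fold lower (9.62 to 59.3), with 2 of the 3 control libraries high. Antigen p23 was 24.96-fold and 24.91-fold below the metalloprotease group for HPB47_018040 and HPB47_016039, and 1.14-fold and 1.48-fold below it without metalloprotease replicate 1. Without that library the metalloprotease group was itself 23.3-fold (14.3 to 40.4) and 14.5-fold (7.87 to 29.6) below control for these genes. With all libraries its summed counts were 1.07-fold (0.929 to 1.22) below control for HPB47_018040 and 1.16-fold (0.944 to 1.43) above control for HPB47_016039. In edgeR, on effective library sizes, the log2 fold changes with all libraries were 0.68 and 0.64. Without control replicate 2 the metalloprotease group was instead 14.5-fold (8.69 to 26.1) above control for HPB47_018040. Intervals cover counting error only, not the spread between pools. Control replicate 2 and metalloprotease replicate 1 were also the only libraries with tick lipocalin counts, all of 1 gene. They had the lowest summed digestive cell markers (2023 and 1820 CPM) and muscle markers (1708 and 953 CPM). They detected 10988 and 10258 genes, and metalloprotease replicate 3 detected 10334. The part of these differences in the counts of both genes was not tested.

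HPB47_015706, an ABCC1 match, had 0, 1 and 0 counts in the control libraries, 8, 0 and 0 in the antigen p23 libraries and 31, 0 and 110 in the metalloprotease libraries. Its ratio of metalloprotease to control was 103 (18.1 to 4084), and 51.4 (8.57 to 2097) without metalloprotease replicate 3, with metalloprotease replicate 2 at 0. HPB47_023796 matches ABCC8, the sulfonylurea receptor that regulates a potassium channel and is not known as an exporter. Its counts were 57, 70 and 60 in the control libraries, 18, 0 and 10 in the antigen p23 libraries and 29, 18 and 445 in the metalloprotease libraries. Metalloprotease replicate 3, the deepest library, held 62.9% of its reads. The metalloprotease group was 1.92-fold above control (1.62 to 2.28) with this library and 2.40-fold below it (1.73 to 3.38) without.

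**Figure D4:**
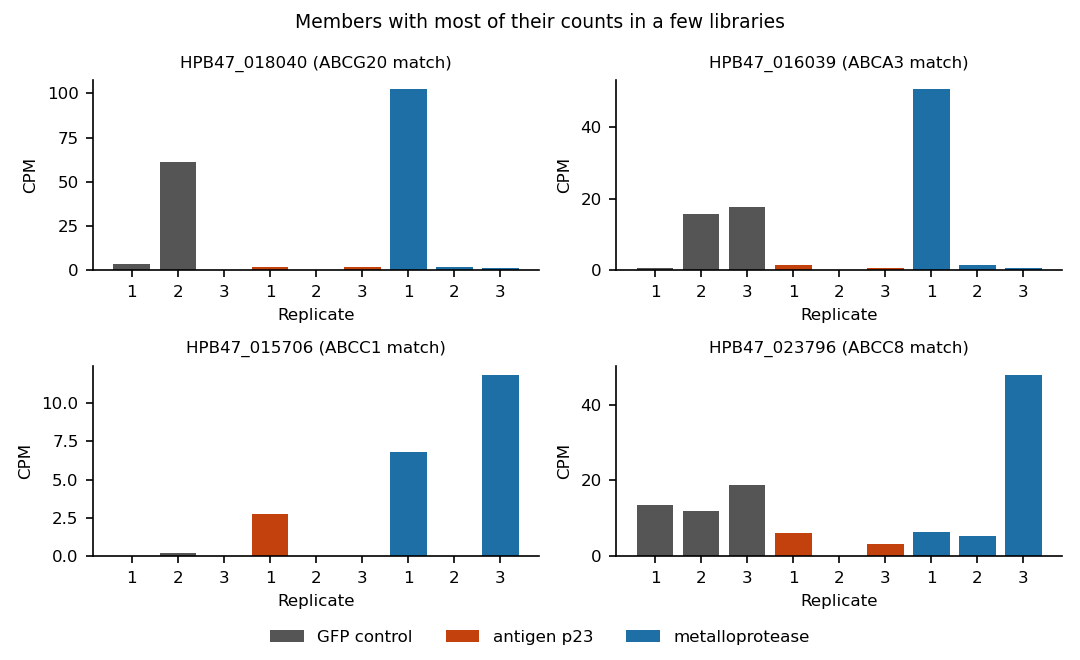
CPM (linear axes from 0, different in each panel) in each library for 4 ABC genes with most of their counts in a few libraries; bars are replicates 1 to 3 of each group. HPB47_018040 is high in control replicate 2 and metalloprotease replicate 1 only, and HPB47_023796 in metalloprotease replicate 3.

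The spread between pools of a group bears on every comparison. For the 31 ABC genes that passed the filter over 9 libraries, the median within-group SD of log2 CPM was 0.62, and for all 6924 genes passing it was 0.70. HPB47_027106 (ABCF2) and HPB47_003320 (ABCC1) were the steadiest ABC genes at 0.14 and 0.17, and HPB47_016039 and HPB47_018040 the most uneven at 2.24 and 2.79.

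The comparison of antigen p23 with GFP control asks which midgut transcripts differ when antigen p23 is silenced. Of the 107 ABC genes, 28 had enough counts to be tested and 0 reached an adjusted p of 0.05 by edgeR's quasi-likelihood test, the same as among all 6381 genes tested (0%). No ABC gene reached an unadjusted p of 0.05 either, whereas 3.26% of all genes did. With DESeq2 0 of 69 ABC genes passed the adjusted threshold (0.05% of all genes) and 3 reached the unadjusted one (3.65% of all genes), namely HPB47_016039, HPB47_018040 and HPB47_023796. The study lists these 3 genes among those lowered by antigen p23 silencing, at a stated adjusted p of 0.05 or less. It reported 438 differentially expressed genes, the number that reached an unadjusted p of 0.05 with DESeq2 here. In edgeR, higher and lower ABC estimates numbered 14 each, with a median log2 fold change of -0.02 against -0.10 for all genes, and the estimates ran from -2.28 to 0.72.

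Although no ABC gene passed, several had groups that did not overlap. In antigen p23 libraries 4 of the 28 were above all control libraries (HPB47_012449, HPB47_027106, HPB47_027107 and HPB47_000007), 14.3% against 5.31% of all genes tested. That share counts the neighbouring ABCF2 matches HPB47_027106 and HPB47_027107 separately, and whether they are parts of the same gene was not tested. Another 4 were below all control libraries (HPB47_022813, HPB47_023796, HPB47_001932 and HPB47_011089), 14.3% against 6.11%. The adjusted p was 0.964 for each of these genes in edgeR. The non-overlap of the 4 above rested on the effective library size, as on plain library totals all 4 overlapped with the controls. Summed on plain totals, antigen p23 was 1.16-fold above control for HPB47_012449 and HPB47_027107, 1.01-fold above for HPB47_027106 and 1.04-fold below for HPB47_000007. The 4 below stayed below all control libraries on plain totals. The summed neural markers did not overlap between these groups either (484 to 669 CPM against 720 to 825 CPM in control libraries), and their part in the ABC values was not tested. The largest estimates among those below were -2.24 (SE 1.10) for the ABCC8 match HPB47_023796 and -2.20 (SE 1.38) for the ABCA2 match HPB47_011089, both with few counts. The ABCB8 match HPB47_001932 had -1.14 (SE 0.65) and the ABCC1 match HPB47_022813 had -0.65 (SE 0.31), the smallest p of the family at 0.067 before adjustment. Of those above, the ABCF2 match HPB47_027107 had 0.47 (SE 0.31), the ABCD4 match HPB47_012449 0.40 (SE 0.28) and the ABCF2 match HPB47_027106 0.29 (SE 0.26).

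By subfamily, the 4 ABCF genes and the ABCE gene had positive estimates in the antigen p23 comparison, 7 of 10 tested ABCC genes had negative ones, and none of these counts was tested. Of all 6381 genes tested, 2805 had positive and 3576 negative estimates. Summed on plain library totals, the ABCF1 match HPB47_003223 was 1.12-fold below control and HPB47_027106 only 1.01-fold above. On the same totals HPB47_027107, HPB47_009048 and HPB47_004275 were 1.16-fold, 1.13-fold and 1.15-fold above. The subfamily medians were 0.37 for F, 0.40 for the 3 D genes, 0.22 for 5 B genes, -0.53 for C and -1.78 for 3 A genes. The 5 lowest estimates, those of HPB47_025654, HPB47_023796, HPB47_011089, HPB47_011090 and HPB47_011071, belong to genes with 0 counts in antigen p23 replicate 2, the library that detected the fewest genes. Its part in these estimates was not tested.

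**Figure D5:**
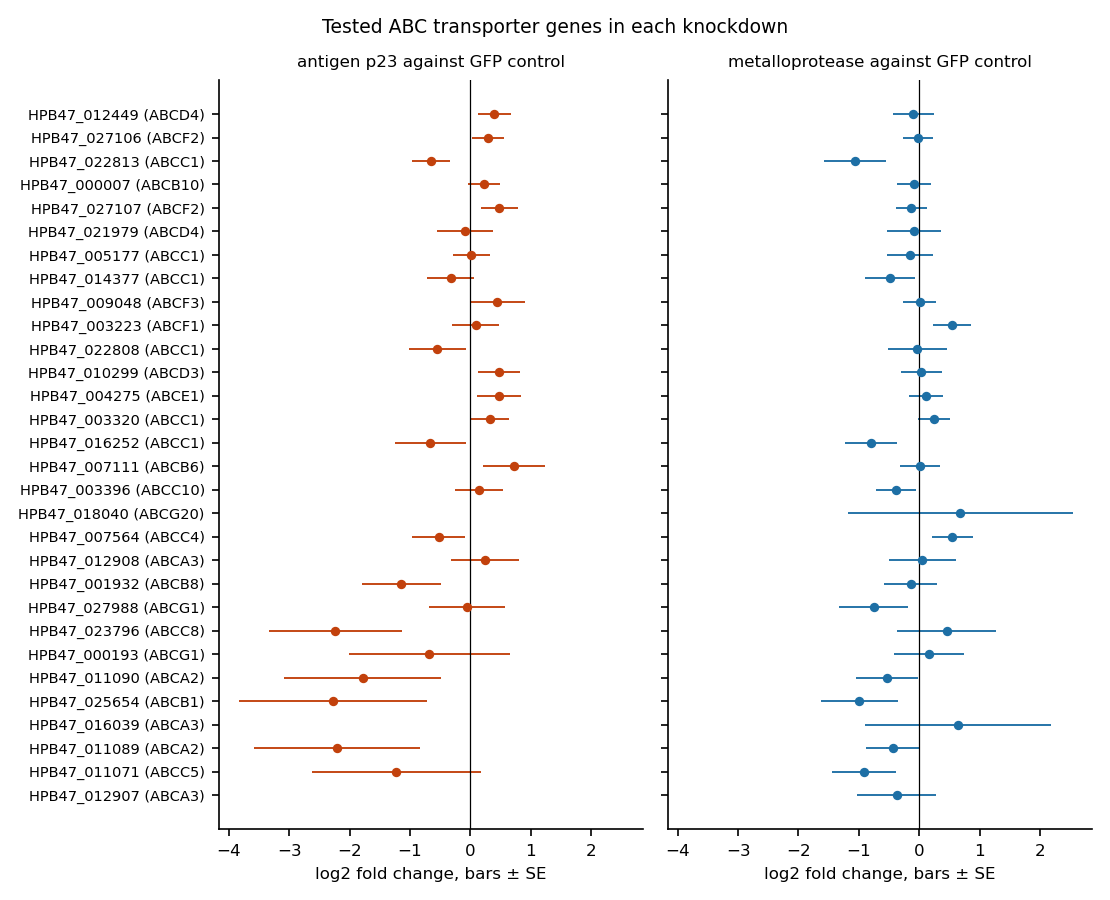
Log2 fold change (points) with its standard error (bars) of the ABC genes tested by edgeR in each knockdown against the GFP control group, in order of mean level, with 1 gene left out. No gene passed an adjusted p of 0.05; bars are short for abundant genes and long for the low genes in the lower rows.

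The comparison of metalloprotease with GFP control uses the same 3 control libraries, so that its values are given beside the others and not as a separate line of evidence. Here 31 ABC genes were tested by edgeR, none passed the adjusted threshold (0% of all 6786 genes) and none reached an unadjusted p of 0.05 (1.43% of all genes). DESeq2 called 0 of 70 (0% of all genes), with 1, HPB47_015706, at an unadjusted p of 0.05 or less (1.44% of all genes). The study lists HPB47_015706 among the genes raised in this group, at a stated adjusted p of 0.05 or less. It reported 182 differentially expressed genes, the number at an unadjusted p of 0.05 or less with DESeq2 here. The edgeR estimates of ABC genes were higher for 13 and lower for 18, with a median of -0.09 against -0.00 for all genes. The sign of this median was not stable, as it was 0.02 without control replicate 1 and 0.04 without control replicate 3. No ABC gene lay above all controls (2.67% of all genes) and 1 of 31, HPB47_022813, lay below all of them (2.9% of all genes). Its log2 fold change was -1.07 (SE 0.51) with an edgeR adjusted p of 1.00.

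Other ABC genes among the smallest p-values of the metalloprotease comparison were the ABCC1 match HPB47_016252 at -0.80 (SE 0.44), the ABCF1 match HPB47_003223 at 0.54 (SE 0.31), the ABCC5 match HPB47_011071 at -0.91 (SE 0.53) and the ABCC4 match HPB47_007564 at 0.55 (SE 0.34), on the log2 scale. The ABCD4 match HPB47_012449, the ABCF2 match HPB47_027106 and the ABCB10 match HPB47_000007 overlapped with the controls in metalloprotease libraries. In antigen p23 libraries these genes were above control on the effective library size only.

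Between the knockdowns, 27 ABC genes were tested by edgeR and 0 passed the adjusted threshold (0% of 6383 genes). At an unadjusted p of 0.05 there was 1 (2.57% of all genes), the ABCC4 match HPB47_007564, at a log2 fold change of -1.06 (SE 0.45) in antigen p23 against metalloprotease with an adjusted p of 0.998. DESeq2 called 0 of 65 ABC genes (0.175% of all genes), with 3 at an unadjusted p of 0.05 or less (3.47% of all genes), namely HPB47_007564, HPB47_023796 and the ABCA3 match HPB47_021239. In antigen p23 libraries 4 genes were above all metalloprotease libraries, 14.8% against 3.68% of all genes, and they were HPB47_012449, HPB47_027106, HPB47_027107 and HPB47_000007 again, compared with the same antigen p23 libraries. On plain library totals those 4 overlapped with the metalloprotease libraries, and the neighbours HPB47_027106 and HPB47_027107 were again counted separately. Below all metalloprotease libraries were 2, HPB47_007564 and HPB47_011089, 7.41% against 5.04%. The log2 estimates were 0.62 (SE 0.33) for HPB47_027107 and 0.51 (SE 0.29) for HPB47_012449. The ABCC8 match HPB47_023796 had -2.67 (SE 1.298), and the ABCB6 match HPB47_007111 had 0.72 (SE 0.49), with overlapping groups. The median was 0.18 against -0.07 for all genes, and it turned to -1.07 without a filter on low counts and to -0.37 in DESeq2, both of which include sparse genes.

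Genes with an ABC membrane domain but no PF00005, and genes that work beside ABC proteins, were also counted. Of 12 genes with an ABC membrane domain and no PF00005, 2 were tested, and both had negative estimates in antigen p23 against control: HPB47_022812 at -1.25 (SE 0.72) and HPB47_013153, a subfamily D match, at -0.79 (SE 0.74). Against control in the metalloprotease group they had -1.02 (SE 0.56) and -0.24 (SE 0.39). HPB47_022812 lies directly before HPB47_022813 on the same strand, and whether they are parts of the same gene was not tested. Genes with glutathione S-transferase domains were listed because ABCC proteins export glutathione conjugates. The list goes by domain, and its most abundant gene is named as an elongation factor. It gave 13 tested genes of 43 in the antigen p23 comparison, 10 higher and 3 lower, with a median of 0.20. In the metalloprotease comparison 14 were tested, 5 higher and 9 lower, with a median of -0.03. The most abundant were elongation factor 1-gamma (HPB47_021698), at 6607 ± 824, 9155 ± 1853 and 7457 ± 1669 in the GFP control, antigen p23 and metalloprotease groups, and a GST1 match (HPB47_010204), at 5727 ± 5564, 6056 ± 3573 and 5420 ± 3255 (level, SD, n = 3).

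Iron-sulfur and heme handling genes, partners of ABCB10 and ABCE1, gave 9 tested of 14 in the antigen p23 comparison, 6 higher and 3 lower with a median of 0.09, and 12 tested in the metalloprotease comparison, 7 higher and 5 lower with a median of 0.10. The glutaredoxin 5 match HPB47_012727, which helps to pass on iron-sulfur clusters, had a level of 561 ± 95.9, 628 ± 65.9 and 474 ± 101 in the control, antigen p23 and metalloprotease groups (SD, n = 3), and the cluster assembly protein HPB47_011478 had 308 ± 128, 378 ± 68.2 and 383 ± 173. Ribosome recycling and release factors, which act with ABCE1, gave 4 tested of 5, 1 higher and 3 lower in both comparisons. The list of peroxisome biogenesis genes and acyl-CoA oxidases gave 8 tested of 11, 4 higher and 4 lower with antigen p23 and 5 higher and 3 lower with metalloprotease. In edgeR, 0 genes of these lists reached an adjusted p of 0.05, and at an unadjusted p of 0.05 there was 1, a glutathione S-transferase domain gene in the antigen p23 comparison.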

How the data were processed

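Midgut mRNA libraries of 3 groups with 3 pools each were analysed. The authors cleaned the reads, mapped them with Bowtie2 2.5.3 to the Ixodes persulcatus genome (BIME_Iper_1.3) and counted them with featureCounts. Raw counts per gene, not normalized, are what the authors deposited. Similar or overlapping genes may share reads, as the treatment of strand and of multi-mapping reads is not given in the sources used. Mapping to another species can lower the counts of divergent genes.

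Here, ABC genes were taken from the Pfam domains, and subfamilies from the Swiss-Prot match, in the deposited annotation. Levels are counts divided by coding length (97.9% of lengths are multiples of 3) and by TMM effective library size over 9 libraries. Each comparison used its 6 libraries in R 4.3.3 with edgeR 4.0.16 (filterByExpr, TMM, robust quasi-likelihood F test, group as the only term), with Benjamini-Hochberg adjustment over all genes tested and a threshold of 0.05. Groups were called not overlapping from TMM-scaled CPM. Standard errors come from the F statistic. DESeq2 1.42.0 was an alternative, as were other size factors and filters, all 9 libraries in 1 fit, no robust dispersions, a replicate block and leaving out each library. The code was tested on simulated data. Sparse genes were summed per group with a 95% exact binomial interval on plain totals, a group at 0 being set at 3 counts.

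Genes named with values were up to 3 per subfamily with the highest level, the 5 with the smallest p in each comparison, and 4 from the study's lists. Those lists group by function the genes that the study called differentially expressed. HPB47_003320, HPB47_003396, HPB47_020172, HPB47_021239, HPB47_022808, HPB47_025654, HPB47_026182 and the genes of the scaffold runs were named after their values were seen. Members and lists were chosen with earlier results of these data known. The labels give pools as separate samples, so p-values measure the spread between pools. A list of UDP-glucuronosyltransferases (PF00201) matched no gene. The values of 1 gene that this rule names are not reported here.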

Additional observations from a re-analysis of the deposited data

How the results depend on the processing

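No ABC gene passed an adjusted p of 0.05 in any comparison under any alternative run, DESeq2 included. Counts at an unadjusted p of 0.05, which were 0, 0 and 1 in the main tests, moved, and so did the share of all genes at that p. For antigen p23 against GFP control they were 5 of 69 tested without a filter on low counts (5.61% of all genes), 1 of 22 with at least 10 counts in every library (4.9%), 1 of 31 with all 9 libraries in 1 fit (4.95%), 3 of 69 with DESeq2 (3.65%) and, chosen after seeing the data, 1 of 35 without antigen p23 replicates 1 and 2 (1.64%, the lone library being assumed to vary like the others). For metalloprotease against GFP control they were 2 of 72 without the filter (1.38%), 1 of 31 with 9 libraries (0.607%), 1 of 70 with DESeq2 (1.44%) and, chosen after seeing the data, 3 of 28 without GFP control replicate 2 and metalloprotease replicate 1 (3.81%). For antigen p23 against metalloprotease they were 5 of 67 without the filter (5.32%), 4 of 31 with 9 libraries (3.99%) and 3 of 65 with DESeq2 (3.47%).

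Leaving out 1 library gave 1 to 4 such genes for antigen p23 against control, of 28 to 32 tested and beside 2.54% to 11.0% of all genes (4 of 32 without antigen p23 replicate 3, where the share of all genes was highest, 2 without its replicate 1 or 2, 1 without each control library). It gave 1 to 3 of 31 to 33 for metalloprotease against control, beside 0.931% to 3.51% (3 without control replicate 2, which gave the highest share, 2 without metalloprotease replicate 1 or 3, 1 otherwise), and there the median log2 fold change ran from -0.20 (without metalloprotease replicate 2) to 0.039 (without control replicate 3). Between the knockdowns it gave 0 (without metalloprotease replicate 3) to 2 (without antigen p23 replicate 3) of 28 or 29, beside 2.15% to 8.63%. The median for antigen p23 against control was -0.78 without the filter and -0.51 with DESeq2, and that between the knockdowns -1.07 and -0.37; both settings test more sparse genes.

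Some log2 fold changes turned sign, none of them past the threshold. In metalloprotease against control, with 1 library left out, HPB47_018040 ran from -3.94 (without metalloprotease replicate 1) to 4.22 (without control replicate 2), HPB47_016039 from -3.51 (without metalloprotease replicate 1) to 1.21, HPB47_023796 from -1.33 (without metalloprotease replicate 3) to 0.90 and HPB47_013153 from -0.49 to 0.22 (without control replicate 3). With the replicate block HPB47_016039 had -2.03 and HPB47_023796 -0.30. In antigen p23 against control, HPB47_013153 had 0.36 without antigen p23 replicates 1 and 2. The other estimates named in the comparisons and refitted here kept their sign.

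All genes called numbered 0 in the main tests. They numbered 5 without the filter and 6 with DESeq2 for antigen p23 against control, and 16 without the filter, 21 with DESeq2 and 1 with at least 10 counts in every library between the knockdowns. With the replicate block, 0 of 27 ABC genes reached an unadjusted p of 0.05 between the knockdowns (2.44% of all genes) and 1 gene of all was called. Replicate numbers are not stated to pair the samples. Deviations from the group mean correlated between same-numbered libraries at -0.16 to -0.05, -0.47 to 0.10 and -0.11 to 0.07 in the 3 comparisons. These values cannot show whether samples were paired, as differently numbered libraries were not compared. The 79 ABC genes not tested by edgeR in the antigen p23 comparison had too few counts to pass its filter, so edgeR gives no value for them.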
